A study of Mus musculus with 4 samples.

Results

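The genes described here mark lymphocytes and natural killer (NK) cells, and they were read in mammary tumours that grew in nude mice. The 37 genes were taken from a list of 8 B cell, 13 T cell and 16 NK cell and cytotoxic genes, and 34 of them had a probe set named with that gene alone, out of 18193 genes so named on the array. Lck, Il2rg and Klrb1c were not analysed here. Where a gene had several probe sets, the brightest by its mean log2 value was used.

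Total RNA was profiled in 4 tumours on Affymetrix mouse arrays, with 1 array for each tumour. All 4 tumours arose from Eph4 cells, an established mouse mammary epithelial line, which had been transduced with the ETV6-NTRK3 fusion oncogene and transplanted into nude mice. The 2 Eph_EN_DN tumours came from such cells with TAM67 added, a dominant negative version of c-Jun, which is a subunit of the transcription factor AP-1, and the 2 Eph_EN tumours from cells without it. The comparison addressed how far tumour formation by the fusion depends on AP-1. The host's allele, strain and age, the promoters of the constructs, and whether the cells were pooled or clonal are not given in the sources used here.

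Nude mice lack a functional thymus, so they form few mature T cells, but they keep B cells and NK cells. T cells carry the CD3 complex beside the T cell receptor, B cells carry CD79 chains beside surface immunoglobulin, and NK cells use germline-encoded receptors of the natural cytotoxicity and killer cell lectin-like families. Cytotoxic lymphocytes kill through perforin and granzymes or through Fas ligand, and they secrete interferon gamma.

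Array medians were 38.1 and 40.8 intensity units in the Eph_EN_DN tumours and 35.6 and 35.9 in the Eph_EN tumours. The ratio of 3' to 5' signal for Gapdh, a measure of RNA integrity, was 1.17 and 1.11 in Eph_EN_DN tumours and 0.938 and 1.04 in Eph_EN tumours. Both measures were higher in each Eph_EN_DN tumour than in either Eph_EN tumour, and their part in the differences below was not tested. Differences are Eph_EN_DN minus Eph_EN in log2(intensity + 16), and every mean, SD and test has n = 2 tumours per group. The labels number the tumours but do not say whether those of a group came from different mice or cultures. The p-values therefore reflect only the scatter among these 4 samples, part of which may be technical. In a bulk tumour, fewer cells of a type and less RNA per cell cannot be told apart.

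No lymphocyte or NK gene passed the test between Eph_EN_DN and Eph_EN tumours. Most of these genes gave a faint signal in all 4 tumours, among them genes that define B cells (Cd79a, Cd79b and Ms4a1), T cells (Cd3d and Cd3g) and NK cells (Klrk1, Eomes and Tbx21). The array medians were faint by the same gauge, which is given below. The largest difference was in Ctsw, a cysteine protease of NK and cytotoxic T cells, which averaged 23.7 ± 4.55 units in Eph_EN_DN tumours and 63.8 ± 3.70 in Eph_EN tumours (SD). Cd247 and Cd7 followed on the lower side, and Pax5 had the largest value on the higher side.

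Of the 34 genes, 16 were left after the dimmest 40% of probe sets were put aside, a filter at a mean log2 level equal to about 25.7 units. Limma, fitted over all 13331 genes tested, gave 0 of these 16 an adjusted p under 0.05, where 0.555% of all genes tested passed. At an unadjusted p under 0.05 there were 3 (Ctsw, Cd7 and Cd247), all lower in Eph_EN_DN tumours, against 9.80% of all genes tested in either direction, 4.86% higher and 4.94% lower. The groups did not overlap in 9 of the 16, with 3 higher and 6 lower, against 40.2% of all genes tested, 20.2% higher and 20.0% lower. A dim gene could enter this set through the group in which it was brighter, so these counts do not describe all 34. With no filter on dim probe sets all 34 were tested and again 0 passed, where 0.440% of 18193 genes passed. The lowest adjusted p was then 0.261. The groups did not overlap in 11 of the 34, 5 higher and 6 lower, against 38.3% of genes without the filter, 20.2% higher and 18.1% lower. At an unadjusted p under 0.05 there were 3 of the 34 (the same 3 genes), against 8.57%.

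**Figure D1:**
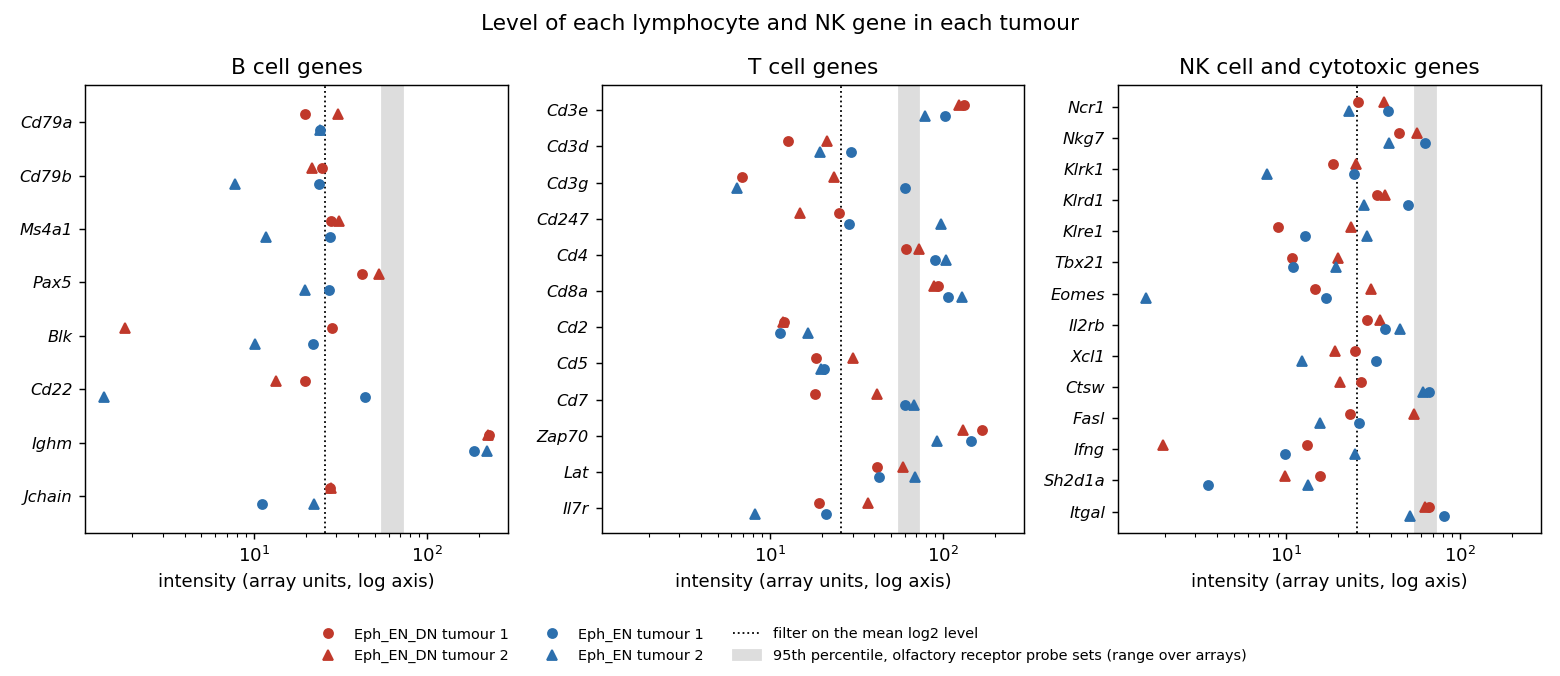
Intensity of the probe set used for each of 34 genes in each tumour on a log axis, with Eph_EN_DN tumours in red and Eph_EN tumours in blue; the dotted line is the filter and the grey band the range over arrays of the 95th percentile of olfactory receptor probe sets. Most points lie left of the band, and Ighm, Cd3e, Cd8a and Zap70 lie above their own array's percentile in all 4 tumours.

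The files used here hold no detection calls. As a gauge of faint signal, the 44 probe sets of olfactory receptor genes, which mammary tissue is not known to use, had a 95th percentile of 55.2 and 72.8 units in the Eph_EN_DN tumours and 64.2 and 60.8 in the Eph_EN tumours. On these arrays 24 of the 34 lymphocyte and NK genes stayed below that level in every tumour, 6 exceeded it in some tumours, and 4 exceeded it in all (Ighm, Cd3e, Cd8a and Zap70). The array medians, 35.6 to 40.8 units, also lay below it, so most probe sets of each array did too. The share of all genes below it in every tumour was not counted. The filter left out 18 of the 34 genes, against 4862 of all 18193. Probe sets differ in how brightly they read a transcript, so this gauge does not show that a gene was absent, and levels of different genes are not ranked here. The number of genes above the level was 6 and 4 in Eph_EN_DN tumours and 7 and 9 in Eph_EN tumours. The level itself differed by array and was highest, at 72.8 units, in Eph_EN_DN tumour 2, which had the 4. The share of all genes above it on each array was not counted, so these numbers do not show a difference between the groups.

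None of the 14 NK cell and cytotoxic genes exceeded the level in all 4 tumours, and Cd79a, Cd79b, Cd3d and Cd3g exceeded it in none. Of the pan-leukocyte genes 14 of 16, and of the macrophage genes 14 of 15, exceeded it in all 4 tumours. In the lists of partners described below, 3 of 18 B cell, 1 of 21 T cell and 5 of 20 NK cell partners also did, as did 7 of 11 common gamma chain signalling genes. These counts do not rank the cell types. Ptprc, which encodes the pan-leukocyte phosphatase CD45, had 412 and 310 units in Eph_EN_DN tumours and 512 and 403 units in Eph_EN tumours.

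Among the T cell genes, Cd3e, Cd3d and Cd3g of the CD3 complex had differences of mixed sign, and none of them passed the test. Cd3e, which encodes CD3 epsilon, had 131 and 124 units in Eph_EN_DN tumours, against 102 and 78.8 units in Eph_EN tumours. Both Eph_EN_DN tumours were higher than either Eph_EN tumour, with a difference of 0.44 ± 0.21 (SE, limma adjusted p = 0.523, 95% interval -0.012 to 0.89). Cd3d, the delta chain, had 12.8 and 21.3 units in Eph_EN_DN tumours and 29.2 and 19.5 units in Eph_EN tumours. Cd3g, the gamma chain, had 6.90 and 23.4 units in Eph_EN_DN tumours and 60.4 and 6.48 units in Eph_EN tumours. In both Cd3d and Cd3g the groups overlapped and the probe set fell below the filter, and in Cd3g a single Eph_EN tumour held the highest value.

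Cd247, which encodes the zeta chain that carries the receptor's signalling motifs, had 25 and 15 units in Eph_EN_DN tumours and 28.5 and 96.5 units in Eph_EN tumours. The groups did not overlap, but Eph_EN tumour 1 lay close to Eph_EN_DN tumour 1 and only Eph_EN tumour 2 stood clear. The difference was -0.99 ± 0.42 (SE, limma adjusted p = 0.446, 95% interval -1.87 to -0.11). Without Eph_EN tumour 1 it was -1.66 and passed (limma adjusted p = 0.0393), and without Eph_EN tumour 2 it was -0.32. The other 3 Cd247 probe sets differed by -0.25, -0.067 and 0.70, so the size of the difference rests on 1 probe set and 1 tumour.

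Zap70, the kinase that docks on the phosphorylated zeta chain, had 168 and 130 units in Eph_EN_DN tumours and 145 and 91.5 units in Eph_EN tumours. The groups overlapped, with a difference of 0.32 ± 0.24 (SE, limma adjusted p = 0.713) that ranged from 0.026 to 0.61 when 1 array was left out. Lat, the membrane adaptor that Zap70 phosphorylates, had 41.2 and 58.4 units in Eph_EN_DN tumours and 42.6 and 68.4 units in Eph_EN tumours, and differed by -0.11 with overlapping groups. Tumour 2 was higher than tumour 1 in each group for Lat, whereas for Zap70 tumour 1 was the higher.

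Neither coreceptor gene passed the test. Cd4, the coreceptor of helper T cells, which some myeloid cells also carry, had 61.1 and 72 units in Eph_EN_DN tumours and 89.9 and 104 units in Eph_EN tumours. Its difference was -0.45 ± 0.22 (SE, limma adjusted p = 0.517, 95% interval -0.91 to 0.0043). Cd8a, the coreceptor chain of cytotoxic T cells and of some dendritic cells, had 93 and 88.8 units in Eph_EN_DN tumours and 106 and 129 units in Eph_EN tumours, a difference of -0.31 ± 0.21 (SE, limma adjusted p = 0.678). A further Cd8a probe set gave -0.33 with groups that did not overlap, and 2 others gave 0.44 and 0.40, also without overlap but in the opposite direction. Cd8a therefore had no single direction across its probe sets.

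Cd7, an immunoglobulin family receptor of T and NK cells, had 18.2 and 41.5 units in Eph_EN_DN tumours and 60.5 and 68 units in Eph_EN tumours. Both Eph_EN tumours were higher, and the 2 Eph_EN_DN tumours differed from each other by more than the 2 Eph_EN tumours did. The difference was -0.85 ± 0.31 (SE, limma adjusted p = 0.362, 95% interval -1.52 to -0.19), and it was -1.23 without Eph_EN_DN tumour 2 and -0.48 without Eph_EN_DN tumour 1.

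The adhesion and survival receptors of T cells were faint. Cd2, the receptor for CD48, had 12.1 and 11.9 units in Eph_EN_DN tumours and 11.4 and 16.5 units in Eph_EN tumours. Cd5, which dampens antigen receptor signalling, had 18.4 and 30 units in Eph_EN_DN tumours and 20.5 and 19.8 units in Eph_EN tumours. Il7r, the interleukin 7 receptor that sustains naive T cells, had 19.3 and 36.6 units in Eph_EN_DN tumours and 21 and 8.22 units in Eph_EN tumours. All 3 stayed below the filter and overlapped between groups. Over the 7 T cell genes kept, 5 were lower and 2 higher, with a median difference of -0.31, beside 0.019 for all genes tested. This median was the value of the Cd8a probe set used, and Cd8a had no single direction across its probe sets. The median ranged from -0.44 to -0.19 when 1 array was left out, as Cd8a did. Without the filter 8 of 12 were lower and 4 higher, with a median of -0.20.

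Among the B cell genes, the CD79 chains that signal for surface immunoglobulin stayed below the filter. Cd79a had 19.8 and 30.6 units in Eph_EN_DN tumours and 24 and 24.1 units in Eph_EN tumours. Cd79b had 24.9 and 21.7 units in Eph_EN_DN tumours and 23.7 and 7.79 units in Eph_EN tumours. Ms4a1, which encodes CD20, had 28 and 31 units in Eph_EN_DN tumours and 27.4 and 11.8 units in Eph_EN tumours. Cd79a and Cd79b overlapped between groups, and in Ms4a1 the groups were separated by less than 1 unit.

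Pax5, the transcription factor that commits cells to the B lineage, had 41.9 and 52.7 units in Eph_EN_DN tumours and 27.3 and 19.7 units in Eph_EN tumours. Both Eph_EN_DN tumours were higher, with a difference of 0.68 ± 0.35 (SE, limma adjusted p = 0.557, 95% interval -0.060 to 1.42). The second Pax5 probe set, at 15.8 and 19.5 units in Eph_EN_DN tumours and 9.74 and 1.86 units in Eph_EN tumours, gave 0.65 with groups that did not overlap either. All of these values lie below the olfactory receptor gauge, and the difference of the brighter probe set was 0.35 with a pseudocount of 64.

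The antibody genes gave mixed readings. The Ighm probe set used, for the constant region of immunoglobulin M, had 227 and 226 units in Eph_EN_DN tumours and 187 and 223 units in Eph_EN tumours, with a difference of 0.14 ± 0.21 (SE, limma adjusted p = 0.882) that ranged from 0.017 to 0.26 when 1 array was left out. Of the 11 Ighm probe sets 4 were higher and 7 lower, from -0.81 to 0.14. The one at -0.81 had 65 and 63.6 units in Eph_EN_DN tumours and 174 and 88.9 units in Eph_EN tumours, and the one at -0.52 had 122 and 119 units in Eph_EN_DN tumours and 248 and 127 units in Eph_EN tumours. In both, Eph_EN tumour 1 stood above the other tumours. The suffixes of the brightest probe set and of the one at -0.81 mark probes that can match other transcripts, so immunoglobulin readings are uncertain. Jchain, which joins secreted immunoglobulin M and A, had 27.6 and 27.8 units in Eph_EN_DN tumours and 11.2 and 22.4 units in Eph_EN tumours, and stayed below the filter.

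Blk, a Src family kinase of B cells, had 28.4 and 1.81 units in Eph_EN_DN tumours and 22 and 10.2 units in Eph_EN tumours. Cd22, an inhibitory receptor of B cells, had 19.9 and 13.5 units in Eph_EN_DN tumours and 43.9 and 1.38 units in Eph_EN tumours. For both genes the spread within a group was larger than any difference between groups. Over all 8 B cell genes 7 differences were positive and 1 negative, with a median of 0.25, and 2 genes (Pax5 and Ighm) were kept by the filter. Dim genes ran slightly positive on these arrays: of 4862 genes left out as dim, 57.3% had a positive difference, with a median of 0.092.

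**Figure D2:**
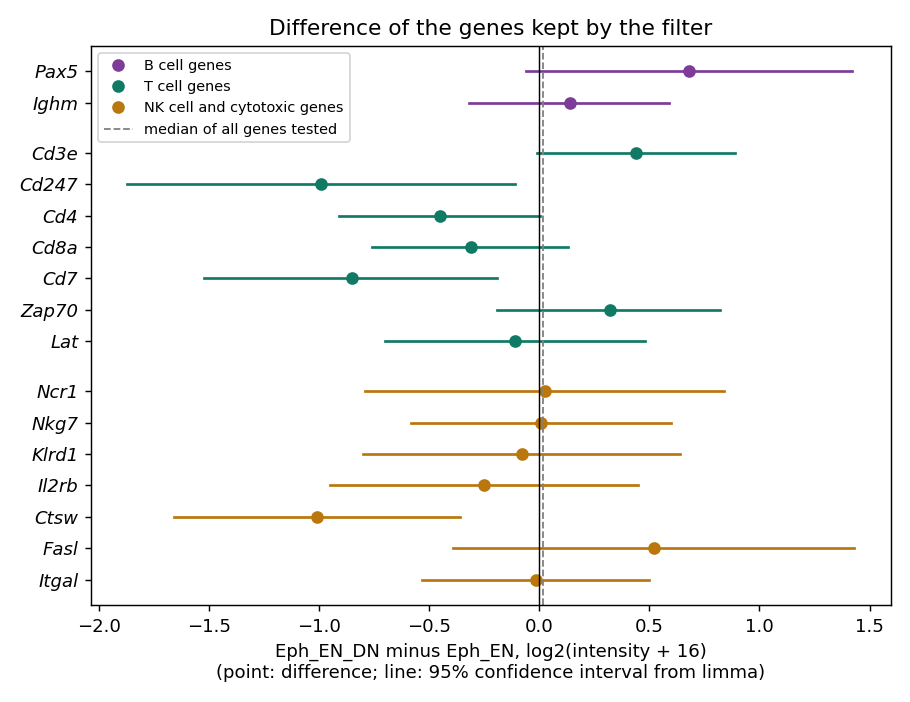
Difference of each of the 16 genes kept by the filter, as Eph_EN_DN minus Eph_EN on the log2(intensity + 16) scale, with limma's 95% confidence interval before adjustment. The intervals of Cd247, Cd7 and Ctsw lie below 0, those of the other 13 genes include 0, and none passed after adjustment.

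Of the NK cell receptors kept by the filter, Ncr1 and Klrd1 overlapped between the groups. Ncr1, which encodes the activating receptor NKp46, had 25.9 and 36.8 units in Eph_EN_DN tumours and 38.7 and 23 units in Eph_EN tumours. Klrd1, which encodes CD94, had 33.4 and 37.1 units in Eph_EN_DN tumours and 50.2 and 28.1 units in Eph_EN tumours. Differences were 0.028 and -0.078 with overlapping groups, and the 95% intervals ran from -0.79 to 0.84 for Ncr1 and from -0.80 to 0.64 for Klrd1. Those intervals are before adjustment.

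Klrk1, which encodes the activating receptor NKG2D, had 18.6 and 25.4 units in Eph_EN_DN tumours and 24.6 and 7.77 units in Eph_EN tumours. Klre1, a lectin-like receptor of rodent NK cells, had 8.98 and 23.6 units in Eph_EN_DN tumours and 12.8 and 29.1 units in Eph_EN tumours. Both stayed below the filter, with overlapping groups. The transcription factors that specify NK cells were as faint. Tbx21, which encodes T-bet, had 10.8 and 20 units in Eph_EN_DN tumours and 11 and 19.3 units in Eph_EN tumours. Eomes, its relative eomesodermin, had 14.7 and 30.8 units in Eph_EN_DN tumours and 16.9 and 1.55 units in Eph_EN tumours. The Eomes difference was 0.66 with overlapping groups, Eph_EN tumour 2 being the lowest and Eph_EN_DN tumour 2 the highest.

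Il2rb, the beta chain shared by the interleukin 2 and interleukin 15 receptors on which NK cells depend, had 29.2 and 34.8 units in Eph_EN_DN tumours and 37.3 and 45.1 units in Eph_EN tumours. Both Eph_EN_DN tumours were lower, with a difference of -0.25 ± 0.33 (SE, limma adjusted p = 0.854). A second Il2rb probe set gave -0.20 with overlapping groups. Itgal, the alpha chain of the leukocyte integrin LFA-1, had 66.5 and 62.8 units in Eph_EN_DN tumours and 81.4 and 52.1 units in Eph_EN tumours, and its difference of -0.014 had a 95% interval from -0.53 to 0.50. Sh2d1a, the adaptor SAP of T and NK cells, had 15.6 and 9.88 units in Eph_EN_DN tumours and 3.54 and 13.3 units in Eph_EN tumours, below the filter.

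Of the effector genes, Ctsw had 26.9 and 20.5 units in Eph_EN_DN tumours and 66.4 and 61.2 units in Eph_EN tumours. The tumours of each group lay close together and the groups were far apart relative to that spread, with a difference of -1.01 ± 0.31 (SE, limma adjusted p = 0.232, 95% interval -1.66 to -0.36). It ranged from -1.13 to -0.89 when 1 array was left out, and it was -0.54 with a pseudocount of 64. Only the Eph_EN values reached the olfactory receptor gauge, and the gene has a single probe set. Nkg7, a membrane protein of cytotoxic granules, had 44.8 and 57.1 units in Eph_EN_DN tumours and 63.2 and 39.4 units in Eph_EN tumours, and its difference of 0.0093 had a 95% interval from -0.58 to 0.60.

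Fasl, the death ligand, had 23.2 and 54.3 units in Eph_EN_DN tumours and 26.4 and 15.7 units in Eph_EN tumours. Its difference of 0.52 ± 0.43 (SE, limma adjusted p = 0.741) was 0.94 without Eph_EN_DN tumour 1 and 0.095 without Eph_EN_DN tumour 2, and a second probe set gave -0.25. Ifng, which encodes interferon gamma, had 13.2 and 1.94 units in Eph_EN_DN tumours and 9.88 and 24.8 units in Eph_EN tumours. Xcl1, the chemokine lymphotactin, had 25.1 and 19.2 units in Eph_EN_DN tumours and 33 and 12.3 units in Eph_EN tumours. Ifng and Xcl1 stayed below the filter and overlapped between groups. Over the 7 NK cell and cytotoxic genes kept, 4 were lower and 3 higher, with a median of -0.014 that ranged from -0.25 to 0.24 when 1 array was left out. Over all 14 measured, 6 were lower and 8 higher with a median of 0.0088.

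**Figure D3:**
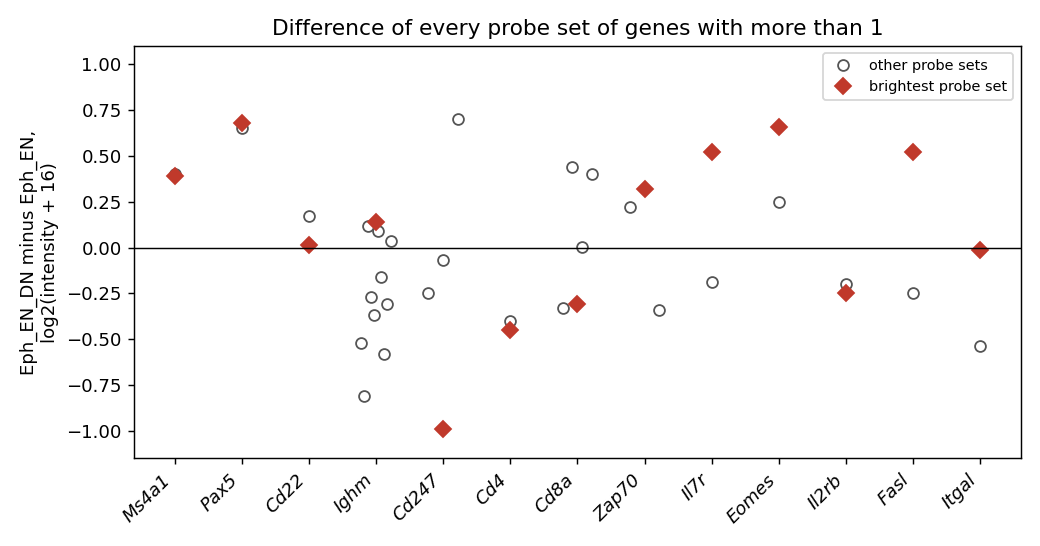
Difference of every probe set of the 13 genes with more than 1, as Eph_EN_DN minus Eph_EN on the log2(intensity + 16) scale, with the brightest probe set as a red diamond and the others as open circles. For 6 of the 13 genes (Ighm, Cd247, Cd8a, Zap70, Il7r and Fasl) at least 1 other probe set has the opposite sign to the brightest.

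Several genes were read by more than 1 probe set, which gave a check within the array. Of 13 such genes, 6 had at least 1 probe set with a difference of the opposite sign, among them Ighm, Cd247 and Cd8a. Ms4a1, Pax5, Cd22, Cd4, Eomes, Il2rb and Itgal kept 1 sign over their probe sets. For Itgal that was -0.014 and -0.54, and for Cd4 it was -0.45 and -0.40.

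Other genes of the same cells were taken from lists of partners. Of 18 B cell partners measured, 10 were kept and 0 passed, with 7 lower, 3 higher and a median of -0.18. Btk, a kinase of B cells and myeloid cells, had 23.5 and 44.3 units in Eph_EN_DN tumours and 65.3 and 56.7 units in Eph_EN tumours (-0.66 ± 0.30 SE, limma adjusted p = 0.486). Mzb1, a chaperone of plasma cells, was at 0.44. Of 21 T cell partners, 12 were kept and 0 passed, with a median of -0.039. Rag1, a recombinase of developing lymphocytes, had 62 and 124 units in Eph_EN_DN tumours and 54.7 and 49.9 units in Eph_EN tumours (0.62 ± 0.27 SE, limma adjusted p = 0.457), and Satb1, a chromatin organiser of thymocytes, was at 0.36.

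Of 20 NK cell partners, 14 were kept and 0 passed, with 8 lower, 6 higher and a median of -0.045. Il18r1, a receptor chain for interleukin 18, had 489 and 697 units in Eph_EN_DN tumours and 281 and 400 units in Eph_EN tumours (0.77 ± 0.24 SE, limma adjusted p = 0.251). Both Eph_EN_DN tumours were higher, while Klrg1, an inhibitory lectin-like receptor, was lower in both at -0.88 ± 0.38 (SE, limma adjusted p = 0.451). Without Eph_EN tumour 2, 1 NK cell partner passed. Among 8 kept genes of common gamma chain signalling 0 passed and 7 were lower, with a median of -0.17, led by Stat5b at -0.35 and Jak3 at -0.32.

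Genes of cytotoxic granules included some that passed. Of 11 measured, 10 were kept and 3 fell, with 8 lower, 2 higher and a median of -0.74, where 0.420% of all genes tested passed as lower. Gzmd and Gzme lay below the filter level in both Eph_EN_DN tumours and were kept through the Eph_EN tumours, so these counts do not describe all 11. Over all 11, 9 were lower and 2 higher, with a median of -0.68, and 3 passed with no filter on dim probe sets. Gzmc had 64 and 32.8 units in Eph_EN_DN tumours and 132 and 275 units in Eph_EN tumours (-1.73 ± 0.29 SE, limma adjusted p = 0.0113). Gzmd had 9.10 and 13.4 units in Eph_EN_DN tumours and 88.8 and 105 units in Eph_EN tumours (-2.05 ± 0.31 SE, limma adjusted p = 0.00523). Gzme had 0.854 and 7.41 units in Eph_EN_DN tumours and 95.1 and 126 units in Eph_EN tumours (-2.66 ± 0.36 SE, limma adjusted p = 0.00162). All 3 are granzymes of activated killer cells in the mouse. The Eph_EN_DN values of Gzmd and Gzme lie far below the olfactory receptor gauge, so the size of their differences is set by the pseudocount: it was -3.02 and -4.80 with a pseudocount of 1, where Gzme did not pass (limma adjusted p = 0.061), and -1.10 and -1.35 with 64. Both probe sets carry a suffix for probes that can match other transcripts. Perforin, Prf1, had 18.6 and 18.6 units in Eph_EN_DN tumours and 51.8 and 37.4 units in Eph_EN tumours (-0.80 ± 0.39 SE, limma adjusted p = 0.521). The granzymes that are most typical of NK and cytotoxic T cells were at -0.37 for Gzma and 0.27 for Gzmb, and neither passed. Values were -0.68 for Gzmf, -1.10 for Gzmk, 0.31 for Gzmm and -0.21 for Srgn, the granule proteoglycan, and Gzmg was below the filter at -0.61. Without Eph_EN tumour 2 only Gzmc passed, and the differences of Gzmd and Gzme were then -1.95 and -2.48. The call of Gzmc was lost without Eph_EN_DN tumour 2, at -1.38, and its limma adjusted p was 0.309 with no intensity trend, 0.0635 with robust variance and 0.174 with the replicate block, under which that of Gzmd was 0.0562.

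Of 17 NK ligands and lymphocyte cytokine genes measured, 12 had a negative and 5 a positive difference, with a median of -0.24. The 12 kept by the filter were the negative ones, with a median of -0.30, and 2 of them fell. Among the 5 others, Il2 and Il21, T cell cytokines named after their values were seen, were each at 0.79 below the filter, with both Eph_EN_DN tumours higher. Cxcl9, a chemokine for CXCR3 on T and NK cells, had 22.3 and 11.4 units in Eph_EN_DN tumours and 376 and 65.8 units in Eph_EN tumours (-2.47 ± 0.46 SE, limma adjusted p = 0.0236), and Cxcl11, a further ligand of that receptor, averaged 43.6 ± 11.9 units in Eph_EN_DN tumours and 110 ± 8.56 units in Eph_EN tumours (SD; -1.10 ± 0.23 SE, limma adjusted p = 0.0448). These calls are not stable, and each gene has a second probe set of opposite sign. With probe sets averaged, Cxcl9 was at -1.08 (limma adjusted p = 0.372). For Cxcl11 the second probe set fell below the filter, so nothing was averaged and the difference stayed at -1.10 (limma adjusted p = 0.0649). Neither gene passed in that setting. Neither passed with quantile normalization, no intensity trend or the replicate block either, and with robust variance Cxcl9 had a limma adjusted p of 0.558. The call of Cxcl9 was lost without Eph_EN tumour 1 (-1.34) and without Eph_EN_DN tumour 2 (-2.23), and that of Cxcl11 without Eph_EN tumour 1 (-1.03) and without either Eph_EN_DN tumour 1 (-0.89) or 2 (-1.30). Of 13 interferon gamma signalling genes 12 were lower, with a median of -0.65, and 1 fell, the interferon-inducible GTPase Igtp (-1.48 ± 0.26 SE, limma adjusted p = 0.0134). The call of Igtp was lost with no intensity trend (limma adjusted p = 0.309), with the replicate block (0.0755) and without Eph_EN_DN tumour 1 (-1.64) or 2 (-1.32), and the number past the threshold was 6 without Eph_EN tumour 2. Psmb8, an immunoproteasome subunit, was at -1.02. Ifng itself differed by -0.51 below the filter.

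**Figure D4:**
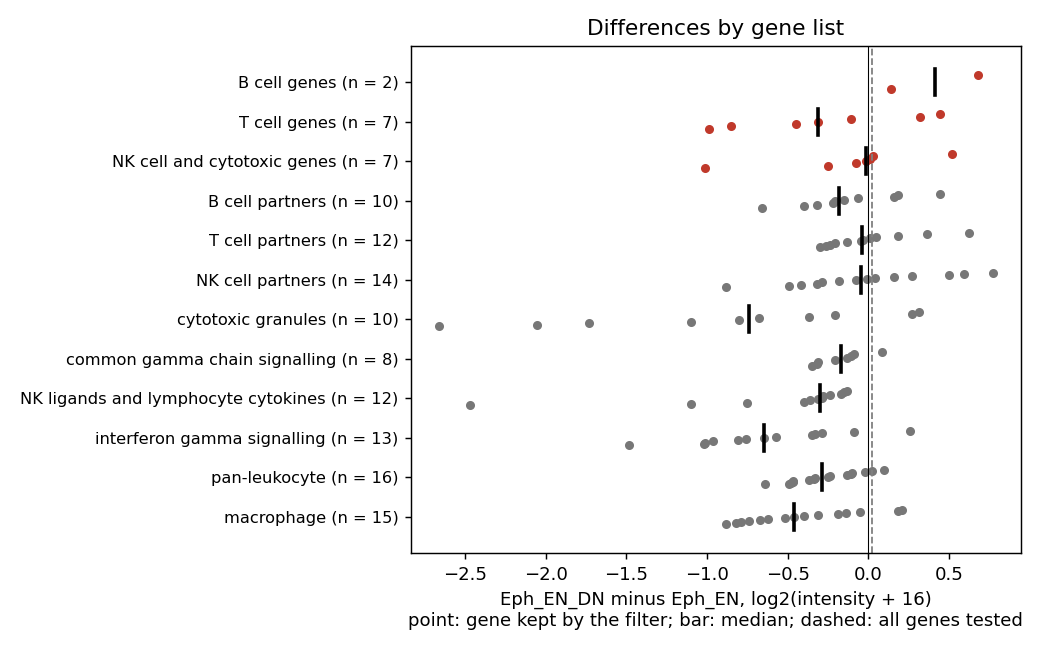
Difference of each gene kept by the filter, by list, as Eph_EN_DN minus Eph_EN on the log2(intensity + 16) scale; red points are the lymphocyte and NK genes, grey points the other lists, bars the medians and the dashed line the median of all genes tested (0.019). The medians of the granule (-0.74), interferon gamma (-0.65) and macrophage (-0.46) lists lie further left than those of the T cell (-0.31) and NK cell (-0.014) genes.

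No pan-leukocyte or macrophage gene passed. Of 16 pan-leukocyte genes 14 were lower with a median of -0.29, where 47.8% of all genes tested had a negative difference, with Coro1a at -0.64 and Lcp1 at -0.49. Their summed level was 3547 to 3905 units in Eph_EN_DN tumours and 4174 to 5210 units in Eph_EN tumours. Of 15 macrophage genes 13 were lower with a median of -0.46, with Lyz2 at -0.88 and C1qb at -0.82; without Eph_EN tumour 2, 6 passed. Their summed level was 12579 to 15715 units in Eph_EN_DN tumours and 19530 to 23369 units in Eph_EN tumours. No macrophage, pan-leukocyte, lymphocyte or NK gene was at 0 on any array, but only 79 to 134 of all 45101 probe sets were. For the lymphocyte and NK classes the summed level was 405 to 418 units in Eph_EN_DN tumours and 321 to 366 units in Eph_EN tumours for 8 B cell genes, 607 to 652 units in Eph_EN_DN tumours and 707 to 717 units in Eph_EN tumours for 12 T cell genes, and 357 to 434 units in Eph_EN_DN tumours and 373 to 475 units in Eph_EN tumours for 14 NK cell and cytotoxic genes. The B and T cell sums did not overlap between the groups, in opposite directions. Of single genes without the filter 38.3% did not overlap, but no such share was computed for sums. The B cell sum is mostly the Ighm probe set used, while 7 of the 11 Ighm probe sets were lower. The part of other blood-derived cells in the readings of Cd4, Cd8a, Itgal and Btk was not tested.

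Of the remaining cell types, 0 of 8 dendritic cell genes passed (median -0.12, with Zbtb46 at 0.80 and Itgax at -0.55), 0 of 5 neutrophil genes (-0.072, with S100a9 at -0.23 and Csf3r at -0.21), 0 of 5 mast cell genes (-0.22, with Kit at -0.54 and Tpsb2 at -0.40) and 0 of 1 innate lymphoid gene (Ahr at 0.20). Fibroblast genes had a median of -0.50 with 0 of 10 past the threshold (Lum at -1.07 and Thy1 at -0.96), and endothelial genes -0.48 with 0 of 5 (Cdh5 at -0.74 and Eng at -0.70). Without Eph_EN tumour 1, 4 fibroblast genes and 1 endothelial gene passed. Epithelial genes had a median of -0.36 with 0 of 7 (Krt14 at 0.67 and Krt5 at -0.63). The adipocyte list ran the other way, with a median of 2.02 and 4 of 6 genes that rose (Car3, Fabp4, Adipoq and Retn); its summed level was 1537 and 6600 units in Eph_EN_DN tumours and 642 and 412 units in Eph_EN tumours. No adipocyte gene passed with robust variance (Car3 had a limma adjusted p of 0.395) or with no intensity trend (0.095), and 1 passed with quantile normalization, median centring, averaged probe sets or the replicate block. Without Eph_EN_DN tumour 2, Car3 alone passed, and Adipoq, Fabp4 and Retn were at 1.06, 1.32 and 0.83. Of 3 skeletal muscle genes 1 rose, Myh1 at 1.39, with Acta1 at 0.19, and Myh1 did not pass without Eph_EN_DN tumour 2 (1.30), with averaged probe sets (1.22), with no intensity trend or with the replicate block. The part of fat or muscle tissue in the lymphocyte readings was not tested.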

How the data were processed

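The deposited values are linear intensities of 45101 probe sets on 4 arrays. The probe summary, background correction and scaling behind them are not stated in the labels or headers. Per the labels, RNA was extracted with Trizol, cleaned on columns and labelled with biotin. No depth applies to arrays, and their number limits the precision. Names came from the platform annotation (34945 probe sets with 1 symbol, 932 with several, 9160 with none, beside 64 controls), and Entrez IDs were looked up in RefSeq's GRCm38.p6 genes, which held 34754 and changed 0 symbols.

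Limma 3.58.1 in R 4.3.3 (lmFit, eBayes with intensity trend, two-sided, Benjamini-Hochberg over all 13331 genes) was run on log2(intensity + 16), which understates fold changes of dim genes. The dimmest 40% of probe sets by mean log2 value were left out, and the brightest probe set of each gene was tested. Class medians have no test. Samples were grouped by title. No block was used. With 1 array left out, the remaining tumour was taken to vary as the other group does, and the filter and probe sets of the 4 arrays were kept.

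The members and lists were chosen with earlier results of these data known. Named genes were every member with a probe set and, from each list, those past the threshold, the 2 with the largest difference, all granule genes and Ptprc. The scripts were tested on simulated data. Alternatives were the filter, scaling between arrays, pseudocount, probe set choice, variance model, replicate block, threshold, single arrays left out and, added after seeing the data, brightness taken as mean intensity. Plots were drawn with matplotlib 3.10.9.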

Additional observations from a re-analysis of the deposited data

How the results depend on the processing

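The count of 0 lymphocyte and NK genes past the threshold held in every alternative run except that without Eph_EN tumour 1, where Cd247 passed, so with arrays left out it was 0 to 1. Over all genes, 18 were higher and 56 lower in Eph_EN_DN tumours; these became 9 and 29 with quantile normalization, 7 and 48 with median centring, 7 and 28 with the mean of all probe sets per gene, 1 and 4 with no trend of variance on intensity, 3 and 8 with the replicate block, 29 and 82 at an adjusted p under 0.10, and 9 to 90 and 9 to 105 with 1 array left out. Tumours of equal number deviated from their group means with a correlation of -0.065 across 13331 genes. From 2 tumours a group this value cannot decide whether the numbers pair them, and the labels do not say. The replicate block changed no call among the lymphocyte and NK genes. It left 1 granule gene, 0 NK ligand and cytokine genes, 0 interferon gamma genes and 1 adipocyte gene past the threshold. With the dimmest 60% left out, Gzmc was the 1 granule gene past it, as Gzmd and Gzme were then not tested. The B cell median of 0.41, over the 2 genes kept, was 0.25 with no filter, 0.14 with the dimmest 60% left out, 0.31 with median centring, 0.57 and 0.23 with pseudocounts of 1 and 64, 0.22 with averaged probe sets and -0.091 where each probe set was taken separately. The T cell median of -0.31 was -0.11 with the dimmest 60% left out and -0.11 with probe sets averaged, and -0.44 to -0.19 with 1 array left out. Among single genes, Ighm was at -0.23 with probe sets averaged, Ncr1 at -0.066 and -0.071 and Nkg7 at -0.07 and -0.089 with quantile normalization and median centring. With 1 array left out the ranges were -0.37 to 0.16 for Lat, -0.22 to 0.27 for Ncr1, -0.25 to 0.27 for Nkg7, -0.37 to 0.22 for Klrd1 and -0.27 to 0.24 for Itgal. Of 248 single-gene values under alternatives, 233 kept sign and call. The cause of each of these changes was not tested. With 2 tumours a group and most of these genes near the faint end of the array, a lack of calls does not show equal levels.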
